A study of Homo sapiens with 12 samples.

Results

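The MYC and MAX network was examined as 10 genes, namely MYC, MAX, MXD1, MXD3, MXD4, MXI1, MNT, MGA, MLX and MLXIP, chosen by symbol from the 19907 genes with a value in every library. The cells were MDA-MB-231, a human triple-negative breast cancer line, carrying a glucocorticoid receptor (GR) with Ser134 replaced by alanine (S134A-GR) or the wild-type receptor (WT-GR). All cells were kept for 18 h in medium with 1% DCC before treatment. The 4 groups were S134A-GR cells given 1 µM dexamethasone (Dex, a synthetic glucocorticoid), S134A-GR cells given vehicle (Veh), WT-GR cells given 1 µM Dex and WT-GR cells given Veh, each for 6 h and each with 3 mRNA libraries. The labels do not say how the receptors were introduced, whether a line was 1 clone, or whether replicate libraries are separate cultures. The p-values rest on the spread of libraries within their groups, pooled over the 4 groups, and this spread could therefore be purely technical. Values are read counts divided by a size factor of their library (normalized reads), and gene counts cannot check the labelled mutation.

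MYC is a basic helix-loop-helix leucine zipper protein that binds DNA only as a dimer with MAX, at E-boxes such as CACGTG, and promotes transcription of genes for ribosome production, growth and metabolism. MAX also pairs with the repressors MXD1, MXD3, MXD4 and MXI1, which recruit the SIN3 corepressor, and with MNT and MGA, which oppose MYC at the same sites. MLX is a MAX-like partner of MLXIP (MondoA), a glucose-sensing activator of TXNIP and ARRDC4, and also pairs with some MXD proteins and MNT. In breast cancer, MYC is known as a driver gene and is often high in triple-negative tumours.

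Promoter windows of 250 bases before the RefSeq starts (GRCh38.p14) were searched for 9 of the 10 genes, over 14 starts. The motifs were CACGTG, which reads the same on both strands, and the GR half-site AGAACA with its reverse complement TGTTCT. The E-box CACGTG occurred before the starts of MXD4, MNT and MLX, 238, 193 and 50 bases upstream, and 6.345% of 35116 RefSeq promoters of that length hold it. A half-site occurred at 1 start of MXI1, and 12.388% of the promoters hold one. Both half-sites as an inverted repeat with 3 bases between them were found at 0 of the 14 starts and in 1 of the 35116 promoters. The upstream stretches of the genes with CACGTG are shown because the motif is the one that the network's own dimers read, and that of MXD1 because its level fell with Dex, whereas MXD4 rose. Each is written 5′ to 3′ on the gene's strand, from the far end of the window to the base before the first GENCODE v29 exon base within it, with CACGTG in capitals. The MXD1 stretch lies inside the annotated gene, since 1 transcript of MXD1 starts farther upstream. They are chr4:2262295-2262359 on the minus strand (MXD4), chr17:42566850-42567067 on the plus strand (MLX), chr17:2401119-2401310 on the minus strand (MNT) and chr2:69914859-69915040 on the plus strand (MXD1). A match is a string of letters and not a measured binding site.
MXD4: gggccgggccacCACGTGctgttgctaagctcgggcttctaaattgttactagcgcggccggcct
MLX: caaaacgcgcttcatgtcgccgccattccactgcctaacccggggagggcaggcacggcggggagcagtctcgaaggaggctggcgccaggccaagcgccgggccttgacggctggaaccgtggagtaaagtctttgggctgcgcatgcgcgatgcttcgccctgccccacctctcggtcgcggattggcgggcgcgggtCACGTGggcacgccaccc
MNT: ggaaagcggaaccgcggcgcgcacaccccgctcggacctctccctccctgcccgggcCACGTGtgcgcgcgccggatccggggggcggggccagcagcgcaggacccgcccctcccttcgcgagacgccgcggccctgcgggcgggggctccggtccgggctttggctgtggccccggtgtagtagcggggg
MXD1: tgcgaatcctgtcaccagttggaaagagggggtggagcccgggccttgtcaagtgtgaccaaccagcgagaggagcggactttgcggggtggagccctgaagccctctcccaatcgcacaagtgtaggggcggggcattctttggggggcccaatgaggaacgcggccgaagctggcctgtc

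In GENCODE v29 (GRCh38) the genes lie at chromosome 8, 127735434 to 127741434 (MYC), chromosome 14, 65006174 to 65102695 (MAX), chromosome 2, 69897688 to 69942945 (MXD1), and chromosome 5, 177301461 to 177312757 (MXD3). MXD4 lies at chromosome 4, 2247432 to 2262294, MXI1 at chromosome 10, 110207605 to 110287365, and MNT at chromosome 17, 2384060 to 2401118. MGA lies at chromosome 15, 41621224 to 41773081, MLX at chromosome 17, 42567068 to 42573239, and MLXIP at chromosome 12, 122078722 to 122147347.

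Gene names in the Dex files were shifted against their values and were restored from the line order of the vehicle files, so every comparison with a Dex group rests on that order. Recovered depth ran from 56.4 to 100.6 M reads (M, mega) per library. The line's 4 mesenchymal markers, VIM, CD44, AXL and CAV1, were at 28862 or more normalized reads in every library, with VIM at 366469 to 431198. Of the markers listed as low in this line, ESR1 was at 0 to 6, CDH1 at 0 to 17 and EPCAM at 315 to 1093, while ERBB2 was at 8864 to 12005. The blood markers PTPRC and CD14 were at 0 to 18 and 2 to 55, and the stromal markers DCN and LUM at 0 to 14 and 0 to 4, whereas the stromal marker PDGFRB was at 1625 to 2872. The endothelial markers PECAM1, VWF and CDH5 were at 1079 to 2779.5, 141 to 414 and 13 to 420.0, and PGR and CD3E were not used here. WT-GR Dex replicates 2 and 3 stood apart, with 193 and 210 genes at a single read where the other 10 libraries had 352 to 409, and results of single genes that change without them are given in both forms. The fit without both left a lone WT-GR Dex library, which was assumed to vary like the other groups. All 10 network genes passed the filter (10 or more normalized reads in 3 or more libraries), which left 15957 genes tested. Differences are on the log2(value + 1) scale, each adjusted p is from limma with Benjamini-Hochberg adjustment over all genes tested, and a gene was called at an adjusted p below 0.05.

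Per kilobase of transcript, MYC was the most abundant of the 10 mRNAs in all 4 groups and MXD1 the least abundant. MYC averaged 12495 ± 175 normalized reads per kb in S134A-GR Dex and 6762 ± 84.7 in S134A-GR Veh cells, and 11620.3 ± 532 in WT-GR Dex and 6650.2 ± 229 in WT-GR Veh cells (SD, n = 3 each). MXD1 averaged 117 ± 13.2 and 152 ± 6.52 per kb in S134A-GR Dex and Veh cells, and 119 ± 7.70 and 173 ± 11.2 in WT-GR Dex and Veh cells. In S134A-GR Dex cells the order below MYC was MXD4, MLX, MXI1, MLXIP, MAX, MXD3, MNT, MGA and MXD1, and the libraries of MXI1 and MLXIP, and of MAX and MXD3, overlapped. In S134A-GR Veh cells MXD3 stood before MLXIP, with overlap, and both before MAX. In WT-GR Dex cells the order was that of S134A-GR Dex cells, with overlap also between MXD4 and MLX. In WT-GR Veh cells MLX stood above MXD4 without overlap, and MAX, MLXIP and MXD3 overlapped in turn. MNT, MGA and MXD1 were the lowest 3 in every group and did not overlap each other. Lengths are of 1 transcript per gene; with merged exon lengths, an alternative added after the data were seen, MYC and MXD1 kept their places in all 4 groups while the order between them changed.

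**Figure D1:**
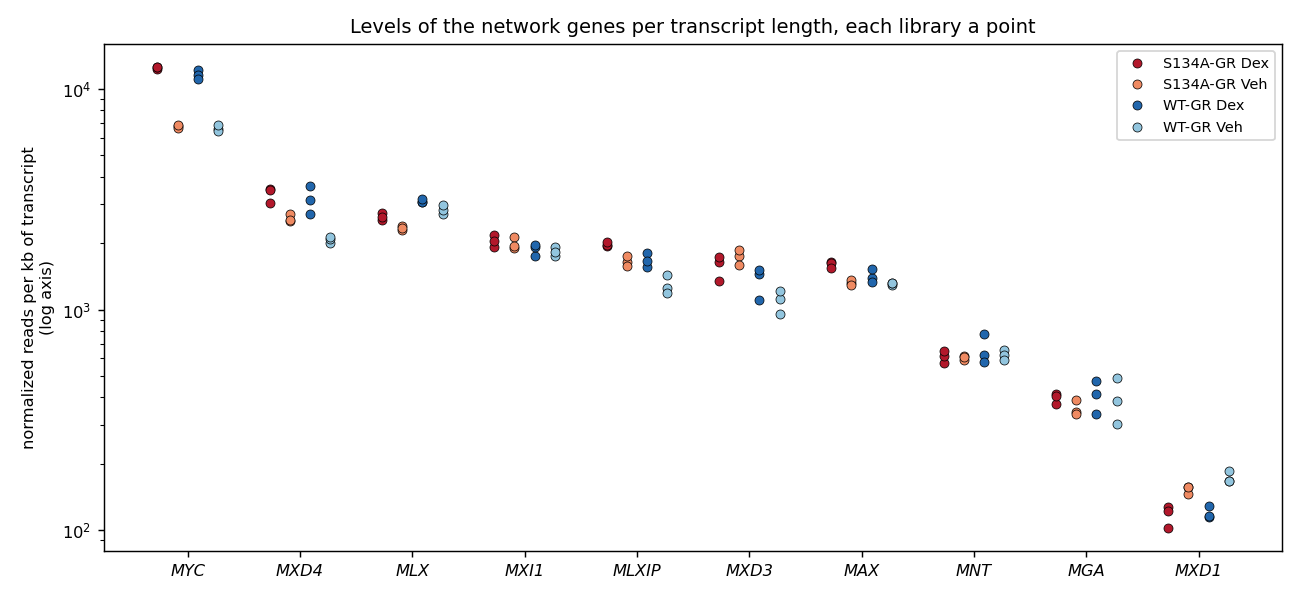
Normalized reads per kb of transcript (log axis) for the 10 network genes, ordered by their mean, with 1 point per library and the 4 groups side by side from left to right as in the legend. MYC is highest and MXD1 lowest in every group, and for MYC the Dex libraries lie above the Veh libraries.

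MYC rose with Dex in both genotypes. The libraries held 29085, 29799.5 and 29804 normalized reads in S134A-GR Dex cells, against 16031, 15785 and 16183 in S134A-GR Veh cells. In WT-GR cells they held 28846, 27279 and 26355 with Dex, against 15553, 15308 and 16343 with Veh. Every Dex library lay above every Veh library. The log2 difference was 0.89 ± 0.042 in S134A-GR cells, 1.85-fold (SE; adjusted p = 2.71e-09), and 0.80 ± 0.042 in WT-GR cells, 1.75-fold (adjusted p = 7.83e-09). As a share of all recovered reads, MYC made up 334 to 339 reads per M in S134A-GR Dex against 183 to 188 in S134A-GR Veh libraries, and 279 to 297 per M in WT-GR Dex against 169 to 180.1 in WT-GR Veh libraries. MYC was 1 of 6 network genes called with Dex in S134A-GR cells (5 higher, 1 lower), where 15.7% of all genes tested were called (7.99% higher, 7.76% lower). It was 1 of 4 in WT-GR cells (3 higher, 1 lower), where 27.9% were called (13.9% higher, 14% lower). These shares come from a joint fit, with 1 spread per gene for all 4 groups. The median SD of log2 values was 0.148 in WT-GR Dex and 0.065 to 0.094 in the other groups. With only the compared groups fitted, 1711 genes were called higher and 1728 lower in S134A-GR cells, against 1275 and 1238. In WT-GR cells 1231 were then called higher and 1259 lower, against 2216 and 2239. More genes were then called in S134A-GR cells, the reverse of the joint fit. The Dex and Veh libraries did not overlap for 6 of the 10 genes in each genotype, as for 38.6% of all genes tested in S134A-GR and 35.1% in WT-GR cells.

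MAX, the shared dimer partner, rose with Dex in S134A-GR cells. Its values were 5202, 5103 and 4873 normalized reads in S134A-GR Dex, against 4151, 4302 and 4086 in S134A-GR Veh cells. They were 4386, 4808 and 4223 in WT-GR Dex, against 4096, 4170.4 and 4165 in WT-GR Veh cells. The groups did not overlap in either genotype, but the gap in WT-GR cells was small beside the spread of its Dex libraries. The log2 difference was 0.28 ± 0.053, 1.21-fold, in S134A-GR cells (SE; adjusted p = 0.00215) and 0.11 ± 0.053 in WT-GR cells (adjusted p = 0.146). Without WT-GR Dex replicate 3 the difference in WT-GR cells was 0.15 (adjusted p = 0.0386), and with library weights 0.15 (adjusted p = 0.0136). A 184-base exon overlap with the antisense gene AL139022.1 could not be separated, since strand use in the counting is not given in the sources used here.

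The MXD repressors moved in different directions. MXD4 rose with Dex in both genotypes and MXD1 fell in both. MXD4 held 12366, 14222 and 14164 normalized reads in S134A-GR Dex, against 10197, 10995 and 10321 in S134A-GR Veh cells. In WT-GR cells it held 14684, 12729 and 10951 with Dex, against 8109.5, 8483 and 8684 with Veh. The groups did not overlap, and the 3 WT-GR Dex libraries were widely spread. The log2 difference was 0.37 ± 0.087, 1.29-fold, in S134A-GR cells (SE; adjusted p = 0.00922) and 0.59 ± 0.087, 1.52-fold, in WT-GR cells (adjusted p = 0.000216). MXD1 held 709, 571 and 683 normalized reads in S134A-GR Dex, against 870.0, 809 and 874 in S134A-GR Veh cells. It held 640.2, 643 and 716 in WT-GR Dex, against 1038, 930.0 and 929.8 in WT-GR Veh cells. Every Dex library lay below every Veh library of its genotype. On the log2 scale MXD1 fell by 0.38 ± 0.094 with the mutant receptor (SE; adjusted p = 0.0118) and by 0.53 ± 0.094 in WT-GR cells (adjusted p = 0.000935). In S134A-GR cells the call was lost without Veh replicate 1 (adjusted p = 0.052), without Veh replicate 3 (0.0513) and without Dex replicate 2 (0.0629), with a fall in each.

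MXD3 and MXI1 did not pass the threshold with Dex in either genotype. MXD3 held 2008, 2441 and 2554 normalized reads in S134A-GR Dex, against 2606, 2776 and 2354 in S134A-GR Veh cells. It held 2143, 2238 and 1636 in WT-GR Dex, against 1416, 1648 and 1793 in WT-GR Veh cells. The groups overlapped in both genotypes, and in WT-GR cells through Dex replicate 3. The log2 differences were −0.15 (95% interval −0.42 to 0.12) in S134A-GR and 0.30 (0.03 to 0.57) in WT-GR cells, with adjusted p = 0.546 and 0.0909, and without WT-GR Dex replicate 3 the value in WT-GR cells was 0.44 (adjusted p = 0.00892), and with library weights 0.37 (adjusted p = 0.00665). MXD3 shares exon bases with PRELID1 on the opposite strand and with RAB24 on the same strand, none of them in the transcript used for its length, and reads in the shared bases could be assigned to either gene. PRELID1 differed with Dex by −0.07 in S134A-GR and by 0.27 in WT-GR cells on the log2 scale (adjusted p = 0.763 and 0.0612), and RAB24 by −0.17 and 0.04 (adjusted p = 0.193 and 0.746). MXI1 held 5274, 4679 and 4949 normalized reads in S134A-GR Dex, against 4586, 5163 and 4717 in S134A-GR Veh cells, and 4258, 4677 and 4759 in WT-GR Dex, against 4238, 4653 and 4416 in WT-GR Veh cells. Its intervals for the Dex difference were −0.10 to 0.18 in both genotypes.

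MNT and MGA, the other MAX-binding antagonists, were not called with Dex. MNT held 2853, 3077 and 3249 normalized reads in S134A-GR Dex, against 3088, 2954 and 3050.4 in S134A-GR Veh cells, and 3887, 3100.4 and 2899 in WT-GR Dex, against 3278, 3119.9 and 2958 in WT-GR Veh cells. The groups overlapped, and WT-GR Dex replicate 1 was the highest of the 12 libraries. With WT-GR Dex replicates 2 and 3 left out, the MNT difference in WT-GR cells was 0.32 (adjusted p = 0.0104), against 0.07 with them (adjusted p = 0.605), and the lone library left was assumed to vary like the other groups. MGA held 5952, 5403 and 5839 normalized reads in S134A-GR Dex, against 4939.9, 4859.7 and 5629 in S134A-GR Veh cells. It held 5963, 4868 and 6822 in WT-GR Dex, against 7062, 5551 and 4352 in WT-GR Veh cells. The WT-GR libraries spread most, with a coefficient of variation of 16.6% in WT-GR Dex and 24% in WT-GR Veh cells. The intervals for the Dex difference of MGA were −0.16 to 0.47 in S134A-GR and −0.24 to 0.39 in WT-GR cells. MYCBP2, a large ubiquitin ligase first named for binding MYC, had the same order of WT-GR Veh libraries as MGA, at 11807, 8308 and 5933 normalized reads.

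MLXIP rose with Dex in both genotypes, and its partner MLX was called in S134A-GR cells. MLXIP held 16363, 16524 and 17027 normalized reads in S134A-GR Dex, against 13884, 13222 and 14707 in S134A-GR Veh cells. It held 15201, 13092 and 14038 in WT-GR Dex, against 12031, 10502 and 9983 in WT-GR Veh cells. The groups did not overlap in either genotype. The log2 difference was 0.26 ± 0.070, 1.19-fold, in S134A-GR cells (SE; adjusted p = 0.0221) and 0.38 ± 0.070, 1.30-fold, in WT-GR cells (adjusted p = 0.00126). MLX held 7123, 6564 and 6826 normalized reads in S134A-GR Dex, against 6172, 5922 and 6041 in S134A-GR Veh cells, and 7911, 7984 and 8185 in WT-GR Dex, against 7046, 7277 and 7705 in WT-GR Veh cells. Again no Dex library fell among the Veh libraries of its genotype. The log2 difference of MLX was 0.18 ± 0.047 in S134A-GR cells (adjusted p = 0.0182) and 0.13 ± 0.047 in WT-GR cells (adjusted p = 0.0534). Both calls in S134A-GR cells were lost when certain single libraries were left out. The differences in those fits were 0.22 to 0.26 for MLXIP and 0.15 to 0.18 for MLX. The call of MLXIP was lost without Veh replicate 1 (adjusted p = 0.0711) or 2 (0.104) and without Dex replicate 2 (0.0591) or 3 (0.0826). That of MLX was lost without Veh replicate 2 (0.0802) or 3 (0.0619), without Dex replicate 1 (0.0787) or 3 (0.0578), and with scaling by library size only (0.0601). In WT-GR cells MLX was called by edgeR with TMM (0.0375), by DESeq2 (0.0409), with library weights (0.0151), with values of at least 50 (0.0482), and without Veh replicate 3 (0.0246) or S134A-GR Dex replicate 1 (0.0466). MLX shares 770 exon bases with PSMC3IP on the opposite strand, and PSMC3IP fell with Dex by 0.35 in S134A-GR and by 0.45 in WT-GR cells on the log2 scale (adjusted p = 0.00507 and 0.00064).

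**Figure D2:**
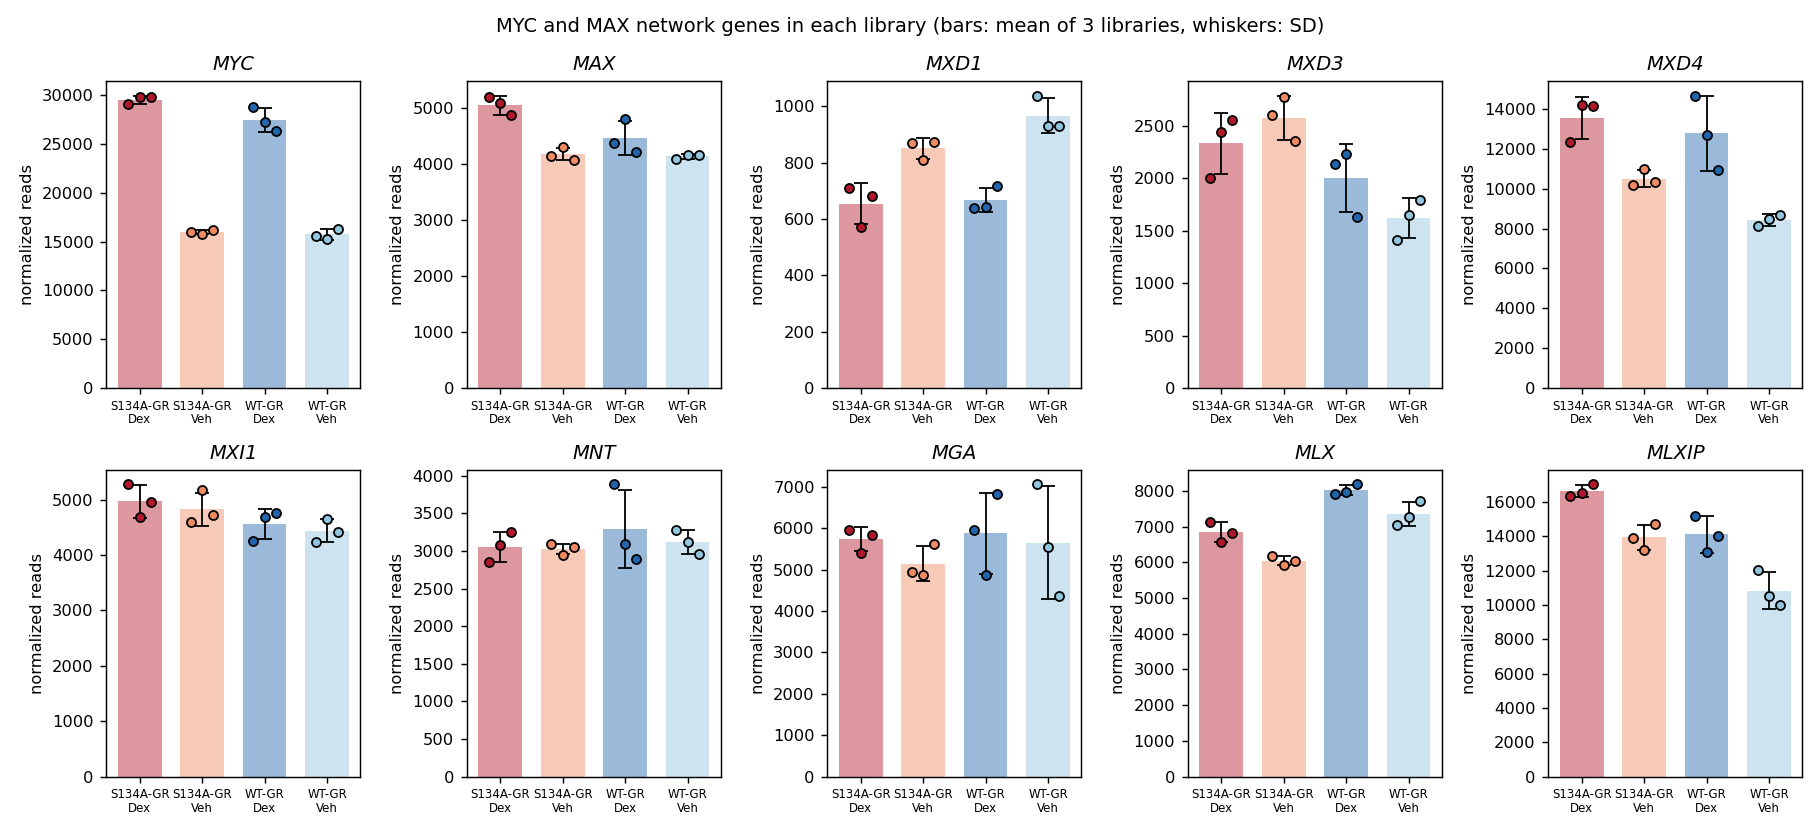
Normalized reads of the 10 network genes, with 1 panel per gene, 1 point per library, bars at the mean of 3 libraries and whiskers of 1 SD, and the groups S134A-GR Dex, S134A-GR Veh, WT-GR Dex and WT-GR Veh from left to right. MYC, MXD4 and MLXIP are higher and MXD1 is lower with Dex in both genotypes, without overlap between the Dex and Veh libraries of a genotype.

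No network gene passed the test of the difference between the Dex responses, S134A-GR minus WT-GR, where 0.414% of all genes tested were called by limma (0.238% higher, 0.175% lower). At an unadjusted p below 0.05 there were 2 of the 10 genes, MAX and MXD3, beside 2790 of all 15957 genes tested. On recovered reads, edgeR with TMM and DESeq2 called 0 of the 10 genes. Of all genes tested, edgeR with TMM called 33 higher and 28 lower, and DESeq2 265 higher and 239 lower. The difference was 0.08 for MYC, with a 95% interval of −0.05 to 0.21 (adjusted p = 0.484), 0.17 for MAX (0.01 to 0.33, adjusted p = 0.274) and 0.15 for MXD1 (−0.14 to 0.44, adjusted p = 0.567). It was −0.45 for MXD3 (−0.84 to −0.06, adjusted p = 0.24), −0.22 for MXD4 (−0.49 to 0.04, adjusted p = 0.355) and −0.13 for MLXIP (−0.34 to 0.09, adjusted p = 0.516). For MXI1, MNT, MGA and MLX the differences were 0.00, −0.06, 0.09 and 0.05, with intervals that held 0. The intervals do not show that the responses were alike, and those of MXD3 and MGA were the widest. Without WT-GR Dex replicate 3, MXD3 (−0.59, adjusted p = 0.0364) and MXD4 (−0.33, adjusted p = 0.0492) were called. Without WT-GR Dex replicates 2 and 3 the difference of MXD4 was −0.43, where the lone WT-GR Dex library left has no spread of its own. With library weights, MXD3 was called (−0.43, adjusted p = 0.0293), in a fit that called 2854 genes in all.

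Between S134A-GR and WT-GR cells in Veh, MXD3, MXD4, MLXIP and MLX differed. These were 4 of the 10 genes called, 3 higher and 1 lower in S134A-GR cells, in a comparison in which 50.5% of all genes tested were called (23.8% higher, 26.7% lower). MXD3 averaged 2578 ± 212 normalized reads in S134A-GR Veh and 1619 ± 190.2 in WT-GR Veh cells (SD, n = 3 each), a log2 difference of 0.67 (adjusted p = 0.000575). MLXIP was higher by 0.37 (adjusted p = 0.000657) and MXD4 by 0.32 (adjusted p = 0.00773), while MLX was lower, with a difference of −0.28 (adjusted p = 0.000224). For each of these 4 genes no S134A-GR Veh library fell among the WT-GR Veh libraries, as for 64.3% of all genes tested. MYC averaged 15999.8 ± 201 in S134A-GR Veh and 15734 ± 541 in WT-GR Veh cells, with an interval of −0.07 to 0.11 for the log2 difference (adjusted p = 0.654), and was called higher with library weights (0.06, adjusted p = 0.0169). MXD1, MXI1, MNT, MGA and MAX were not called in Veh by limma, and MXI1 was called higher with scaling by library size only (0.20, adjusted p = 0.0289).

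In Dex, 3 of the 10 genes were called, where 49.7% of all genes tested were called (23.4% higher, 26.3% lower). MLXIP was higher in S134A-GR cells by 0.24 (adjusted p = 0.0114) and MAX by 0.18 (adjusted p = 0.0121), and MLX was lower, with a difference of −0.23 (adjusted p = 0.00102). MYC differed by 0.11 (interval 0.02 to 0.20, adjusted p = 0.0506), and all 3 S134A-GR Dex libraries lay above the 3 WT-GR Dex libraries, a lack of overlap that 52.4% of all genes tested shared. That MYC value lies at the threshold, since it was called by edgeR with TMM (adjusted p = 0.0456), by DESeq2 (0.0399), with values of at least 50 (0.0458), with library weights (0.0164), without WT-GR Dex replicate 1 (0.14, adjusted p = 0.0107) and without WT-GR Veh replicate 3 (0.11, adjusted p = 0.0414). The call of MAX was lost with only the compared groups fitted (0.18, adjusted p = 0.0569) and with library weights (0.11, adjusted p = 0.0845). Without WT-GR Dex replicate 1, MXD4 was also called (0.20, adjusted p = 0.0418), while it was at −0.01 without replicate 3, and without WT-GR Dex replicate 2 MLXIP was not (0.19, adjusted p = 0.0549). Without WT-GR Dex replicates 2 and 3, MNT differed by −0.35 and MLXIP by 0.13, where the lone WT-GR Dex library left has no spread of its own. Scaling by library size only moved the median of all genes here to 0.115, against 0.011 in limma, and 6 of the 10 genes were then called, all higher, with MYC at 0.22 (adjusted p = 0.000549), while MLX was at −0.12 (adjusted p = 0.0757). The share of higher calls among all genes called was then 64.9% in Dex, and 59.6% in Veh.

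**Figure D3:**
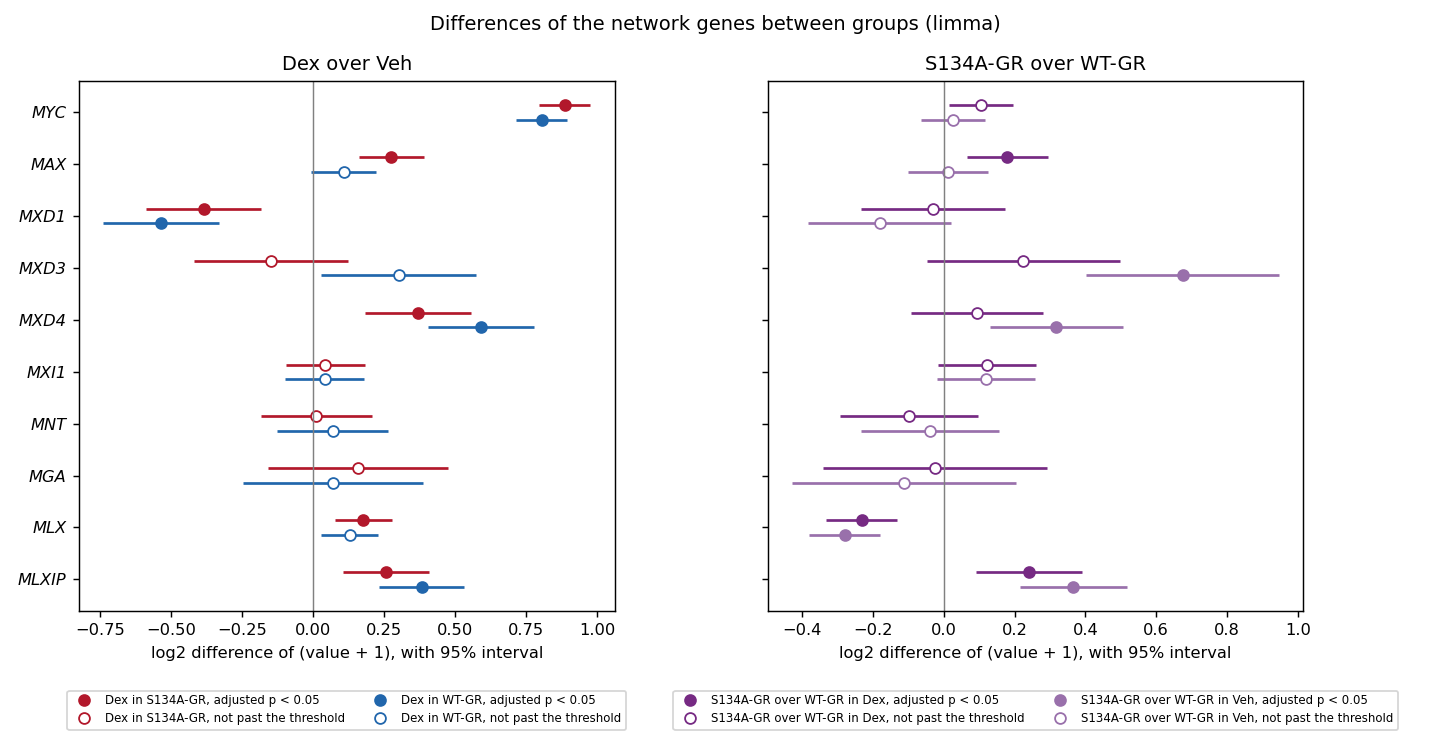
Log2 differences of the 10 network genes with 95% intervals from limma, filled where the adjusted p was below 0.05. The left panel gives Dex over Veh in S134A-GR and WT-GR cells and the right panel S134A-GR over WT-GR cells in Dex and Veh, and MYC has the largest Dex difference of the 10 genes in both genotypes, whereas its genotype differences are 0.11 in Dex and 0.02 in Veh.

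The balance of the mRNAs per kb of transcript moved with MYC. MYC over MAX was 7.46 to 8.16 in the S134A-GR Dex libraries, against 4.89 to 5.28 in S134A-GR Veh, and 7.57 to 8.77 in WT-GR Dex, against 4.89 to 5.23 in WT-GR Veh. MYC over the sum of MXD1, MXD3, MXD4, MXI1 and MNT was 1.57 to 1.69 in S134A-GR Dex, against 0.896 to 0.999 in S134A-GR Veh, and 1.58 to 1.72 in WT-GR Dex, against 1.09 to 1.19 in WT-GR Veh. The level of this ratio depends on the lengths used. With merged exon lengths it was 2.45 to 2.60 in S134A-GR Dex, against 1.43 to 1.57 in S134A-GR Veh. In WT-GR cells it was then 2.42 to 2.62 with Dex, against 1.68 to 1.80 with Veh. MLXIP over MLX was 0.705 to 0.772 in S134A-GR Dex and 0.685 to 0.747 in S134A-GR Veh libraries, above the 0.503 to 0.590 of WT-GR Dex and the 0.398 to 0.524 of WT-GR Veh libraries. The Dex and Veh libraries of a genotype did not overlap for the 2 ratios with MYC, and the genotypes did not overlap for MLXIP over MLX. These are ratios of mRNA and say nothing of protein dimers.

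Across the 12 libraries the profiles most like that of MYC, by the root-mean-square difference of centred log2 values, were BCL2L1 (0.0347), CITED2 (0.0646), NUDT16 (0.0673), PTPN1 (0.0776) and MCL1 (0.0781). BCL2L1 and MCL1 encode anti-apoptotic proteins of the BCL2 family, CITED2 a transcriptional coregulator and PTPN1 a protein tyrosine phosphatase. BCL2L1 held 51851, 53826 and 54013 normalized reads in S134A-GR Dex, against 30411, 29039.7 and 30296 in S134A-GR Veh cells, and 54745, 49337 and 47849 in WT-GR Dex, against 27418, 28275 and 28879 in WT-GR Veh cells. The nearest fellow of MYC was MXD4 at 0.224, farther than the 5 genes above. MXD4 and MLXIP were each other's nearest fellow (0.158), as were MAX and MXI1 (0.111) and MNT and MLX (0.170). The nearest of all genes was OGFOD1 for MAX (0.0427), MALT1 for MXD1 (0.0817), H2AFJ for MXD3 (0.0793), PXDC1 for MXD4 (0.0529) and NNT-AS1 for MXI1 (0.0346). It was DVL3 for MNT (0.0539), NOTCH2 for MGA (0.0616), ADSL for MLX (0.0453) and PDCD11 for MLXIP (0.0429).

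**Figure D4:**
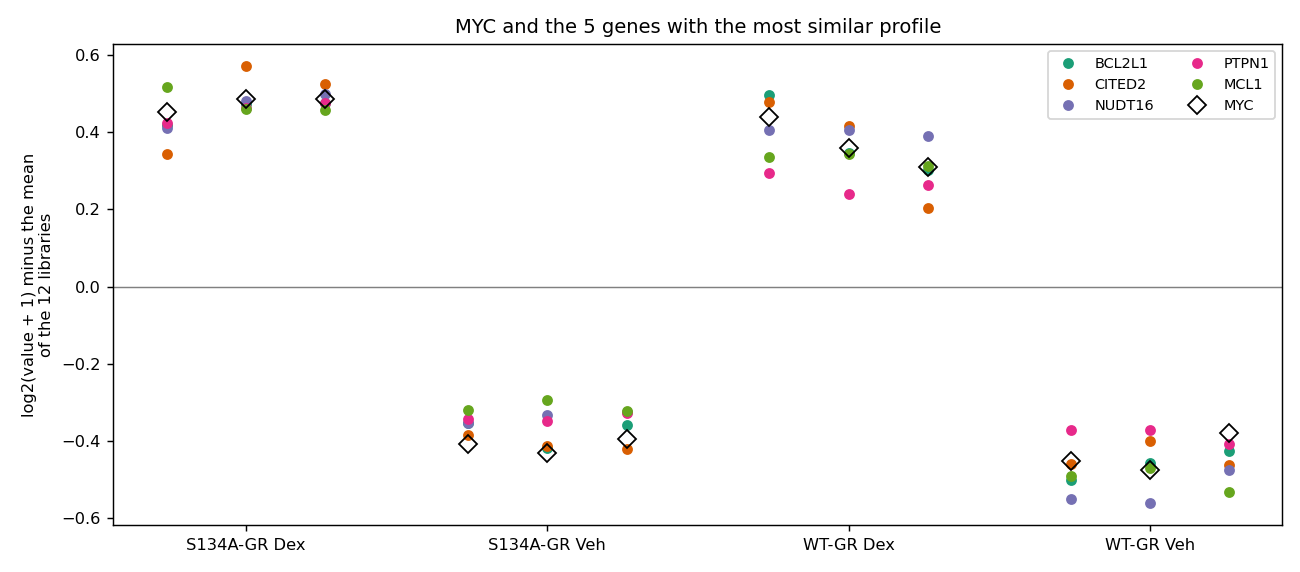
Log2(value + 1) minus the mean of the 12 libraries for MYC (open diamonds) and the 5 genes with the most similar profile (points), with the 3 libraries of each group side by side. All 6 genes lie above 0 in the 6 Dex libraries and below 0 in the 6 Veh libraries, which is how these 5 genes were chosen.

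Genes around the network were then described by lists. Of 4 other network genes tested, PVT1, a long non-coding RNA gene next to MYC, rose with Dex by 0.24 in S134A-GR and by 0.23 in WT-GR cells (adjusted p = 0.0135 and 0.012). The call of PVT1 was lost in S134A-GR cells without Veh replicate 2 (adjusted p = 0.0734) or Dex replicate 3 (0.0582). In WT-GR cells it was lost without Veh replicate 1 (adjusted p = 0.057), with scaling by library size only (0.0639) and with only the compared groups fitted (0.0773). PVT1 held 2157, 2106 and 2186 normalized reads in S134A-GR Dex, against 1859.7, 1733 and 1876 in S134A-GR Veh cells. MLXIPL (ChREBP), the paralogue of MLXIP that also pairs with MLX, fell with Dex by 0.74 in S134A-GR and by 0.51 in WT-GR cells (adjusted p = 0.00303 and 0.02). MLXIPL lost its call in WT-GR cells without Veh replicate 2 (adjusted p = 0.0958), without Dex replicates 2 and 3 (0.0666) and with only the compared groups fitted (0.111). MLXIPL held 218, 213 and 251 in S134A-GR Dex, against 371, 366 and 396 in S134A-GR Veh cells, and 128, 139 and 103 in WT-GR Dex, against 153, 202 and 173 in WT-GR Veh cells. MYCL and MYCBP2 were not called with Dex, and MYCBP, at 0 to 14 normalized reads, did not pass the filter.

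Of 34 MYC-activated nucleolar genes, which serve ribosome assembly, 7 rose and 0 fell with Dex in S134A-GR cells by limma (median 0.07), and 10 rose and 1 fell in WT-GR cells (median 0.12). The counts changed when single libraries were left out, since 3 rose in S134A-GR cells without their Veh replicate 2. There 4 rose without Veh replicate 3 or any 1 Dex replicate. Fits without 1 S134A-GR library also called fewer of all genes tested higher there, 942 to 1058 against 1275. In WT-GR cells 3 rose without Veh replicate 2, 6 without Dex replicate 1 and 15 without Dex replicate 3, with 1, 1 and 2 that fell. Of all genes tested, those fits called 1505, 1704 and 3088 higher there, against 2216. Among all genes tested 7.99% rose and 7.76% fell in S134A-GR cells, and 13.9% rose and 14% fell in WT-GR cells, with medians of −0.02 in both. NOP16 rose by 0.30 in S134A-GR and 0.38 in WT-GR cells (adjusted p = 0.00149 and 0.000211), and BYSL by 0.28 and 0.20 (adjusted p = 0.00114 and 0.00894). NOP2 and WDR74 rose in WT-GR cells by 0.25 and 0.40, and DDX18, an RNA helicase, fell there by 0.22 (adjusted p = 0.00382). With scaling by library size only, 4 rose in S134A-GR cells, and in WT-GR cells 5 rose and 2 fell. Under that scaling 1109 of all genes tested rose and 1442 fell in S134A-GR cells, and 1448 rose and 3023 fell in WT-GR cells. Of the 33 MYC-activated growth and metabolism genes, 0 rose by limma and 2 fell in S134A-GR cells (median 0.01), and 5 rose and 7 fell in WT-GR cells (median −0.06). ODC1, the first enzyme of polyamine synthesis, fell by 0.36 in S134A-GR and by 0.18 in WT-GR cells (adjusted p = 4.93e-05 and 0.0111). CDC25A, a cell cycle phosphatase, fell by 0.20 and 0.45 (adjusted p = 0.0163 and 2.18e-05). In WT-GR cells PPAT, the first enzyme of purine synthesis, fell by 0.40 and PHB rose by 0.26, and with scaling by library size only 2 genes of the list rose and 12 fell there. Without WT-GR Veh replicate 1, 2 rose and 4 fell, without Veh replicate 2, 2 rose and 5 fell, and without Dex replicate 1, 3 rose and 4 fell, all in WT-GR cells. Of all genes tested, these 3 fits called 1614, 1505 and 1704 higher there, against 2216. They called 1613, 1458 and 1907 lower, against 2239. Without WT-GR Dex replicates 2 and 3, 4 fell in S134A-GR cells.

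Among 9 MYC-repressed genes tested, 3 rose and 3 fell with Dex in S134A-GR cells, and 3 rose and 1 fell in WT-GR cells, where 2 fell with scaling by library size only or without S134A-GR Dex replicate 1. Of all genes tested, 7.99% rose and 7.76% fell in S134A-GR cells, and 13.9% rose and 14% fell in WT-GR cells. The cyclin-dependent kinase inhibitor gene CDKN1A rose by 1.05 in S134A-GR and 0.74 in WT-GR cells (adjusted p = 8.52e-08 and 3.31e-06). GADD45A, a stress gene, rose by 1.21 and 1.06, and THBS1, a secreted matrix glycoprotein, by 1.27 and 1.28. NDRG1 fell by 0.56 in S134A-GR and 0.53 in WT-GR cells (adjusted p = 3.76e-06 and 6.8e-06). Of the MLXIP and MLX target genes, TXNIP, an inhibitor of thioredoxin and of glucose uptake, held 27549, 24797 and 26148 normalized reads in S134A-GR Dex, against 13480.5, 13924 and 13596 in S134A-GR Veh cells. It held 36107, 35706 and 41227 in WT-GR Dex, against 14904, 15735 and 14827 in WT-GR Veh cells, so that TXNIP rose by 0.94 in S134A-GR and 1.31 in WT-GR cells (adjusted p = 3.55e-08 and 1.16e-09). ARRDC4, the paralogue of TXNIP, differed by −0.12 and −0.30 (adjusted p = 0.604 and 0.0668), and ARRDC4 was called lower in WT-GR cells with scaling by library size only (adjusted p = 0.0317), with library weights (0.0159) and without S134A-GR Dex replicate 1 (0.0422). KLF10 rose in S134A-GR cells by 0.14 (adjusted p = 0.0345), a call lost without any 1 library of that genotype (adjusted p 0.074 to 0.135), with a replicate block (0.0568) and with scaling by library size only (0.0793).

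Of 17 genes for MYC protein turnover, 2 rose and 3 fell with Dex in S134A-GR cells, and 2 rose and 5 fell in WT-GR cells. The counts of the turnover, SIN3, PRC1.6 and coactivator genes stand beside 7.99% higher and 7.76% lower among all genes tested in S134A-GR cells, and 13.9% higher and 14% lower in WT-GR cells. PIM1, a kinase that phosphorylates MYC, fell by 0.82 in S134A-GR and 0.58 in WT-GR cells (adjusted p = 2.14e-06 and 7.12e-05), and SKP2, a ubiquitin ligase subunit for MYC, fell by 0.29 and 0.41 (adjusted p = 0.00358 and 0.000184). PPP2R5A, a subunit of the phosphatase PP2A, rose by 0.28 and 0.15 (adjusted p = 0.00107 and 0.031). Of 16 SIN3 corepressor genes, 2 rose and 3 fell in each genotype, with SAP30 higher by 0.28 in S134A-GR and 0.55 in WT-GR cells (adjusted p = 0.00227 and 4.54e-06). SIN3B, a scaffold of the complex, fell by 0.27 and 0.23 (adjusted p = 0.00286 and 0.00659). Among 11 genes of the MGA complex PRC1.6, 1 rose and 0 fell in S134A-GR cells by limma, and 1 rose and 1 fell in WT-GR cells, with EHMT1, a histone methyltransferase, higher by 0.17 and 0.29 (adjusted p = 0.0314 and 0.000794). Of 15 MYC coactivators 0 were called in S134A-GR cells by limma, with 1 at an unadjusted p below 0.05, and in WT-GR cells KAT5 rose by 0.22 and CCNT1 fell by 0.24. Without any 1 of 5 libraries (S134A-GR Veh replicates 1, 2 and 3 and Dex replicates 1 and 2), 1 SIN3 gene rose and 2 fell in S134A-GR cells, and without Veh replicate 1 or 2 or Dex replicate 3 the same numbers held for the turnover genes. Fits without 1 S134A-GR library called 942 to 1058 of all genes tested higher there and 856 to 984 lower, against 1275 and 1238. In WT-GR cells without Dex replicate 3, 4 SIN3 genes rose and 5 fell and 3 coactivators rose, without Veh replicate 1, 0 turnover genes rose and 4 fell, and without Veh replicate 2, 0 coactivators were called. Of all genes tested, 3088 rose and 3006 fell there without Dex replicate 3, and 1614 rose and 1613 fell without Veh replicate 1. Without Veh replicate 2, 1505 rose and 1458 fell, against 2216 and 2239 with all libraries. With scaling by library size only, 2 SIN3 genes rose and 5 fell in WT-GR cells, 1 PRC1.6 gene rose and 3 fell, and 1 turnover gene rose and 6 fell. Of all genes called with Dex in WT-GR cells, 32.4% were higher under that scaling, against 49.7% in limma.

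No gene of these 9 lists passed the limma test of the difference between the Dex responses. Summed over the lists, 30 of 142 genes tested were at an unadjusted p below 0.05, beside 2790 of all 15957 genes tested. Of the list genes, edgeR with TMM called 0, and DESeq2 called 4 higher and 3 lower. Of all genes tested, DESeq2 called 265 higher and 239 lower. Without WT-GR Dex replicates 2 and 3, a lone WT-GR Dex library was left, with no spread of its own, so list genes called in that fit are not counted. Without WT-GR Dex replicate 3 alone, 2 nucleolar genes were higher and 2 lower, 6 growth and metabolism genes were higher, and 738 genes were higher and 866 lower in all.

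**Figure D5:**
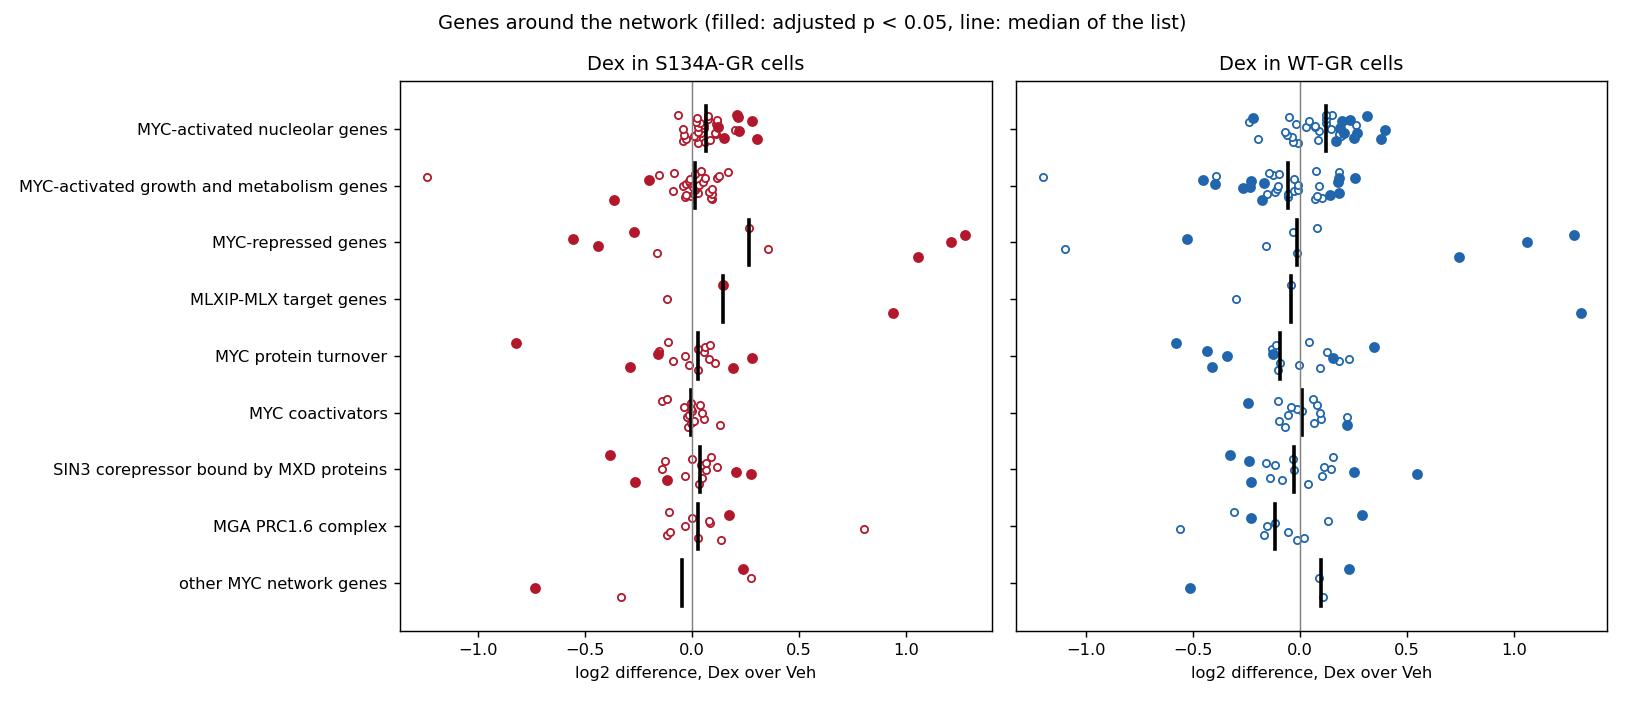
Log2 differences of Dex over Veh for the genes of the 9 lists in S134A-GR cells (left) and WT-GR cells (right), with 1 point per gene, filled where the adjusted p was below 0.05, and a line at the median of each list. The medians of the nucleolar genes are 0.07 and 0.12, and TXNIP, THBS1, GADD45A and CDKN1A hold the filled points farthest to the right.

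Between the genotypes, 2 of the 16 SIN3 corepressor genes were higher and 9 lower in Veh, S134A-GR over WT-GR, and 2 were higher and 7 lower in Dex. Of all genes tested, 23.8% were higher and 26.7% lower in Veh, and 23.4% were higher and 26.3% lower in Dex. HDAC1, a deacetylase of the complex, was lower, at −0.27 in Veh and −0.31 in Dex, as was SAP18, at −0.46 and −0.59. Of the 11 PRC1.6 genes 5 were lower in Veh and 4 in Dex, and 0 were higher by limma in either, with E2F6, its DNA-binding repressor, at −0.66 and −0.52 and RNF2, a ubiquitin ligase, at −0.39 and −0.27. MLXIPL was higher in S134A-GR cells by 1.11 in Veh and 0.88 in Dex (adjusted p = 3.55e-05 and 0.000242). ARRDC4 was higher by 0.50 and 0.68 (adjusted p = 0.00228 and 0.000245), while TXNIP was lower, at −0.15 and −0.52 (adjusted p = 0.0422 and 5.8e-06). The nucleolar list held 6 higher and 10 lower genes in Veh and 6 higher and 11 lower in Dex, a split that turned to 13 against 6 and 13 against 5 with scaling by library size only. Of all genes tested, 4849 were higher and 3285 lower in Veh under that scaling, against 3804 and 4257 in limma. In Dex 5347 were then higher and 2896 lower, against 3730 and 4201. Of the growth and metabolism genes 5 were higher and 12 lower in Veh, and 7 higher and 12 lower in Dex, with LDHA, which makes lactate, at −0.53 and −0.51 and the one-carbon enzyme MTHFD2 at −0.63 and −0.51. Among the turnover genes 4 were higher and 6 lower in Veh, and USP28, a deubiquitinase of MYC, was at −0.71 in Veh and −0.61 in Dex. Of the coactivators 3 were higher and 2 lower in Veh, with the acetyltransferase KAT2A higher by 0.50 in Veh and 0.42 in Dex. The MYC-repressed list held 1 higher gene, CLU (0.88), and 2 lower genes in Veh. With scaling by library size only, 4 SIN3 genes were higher and 6 lower in both Veh and Dex, 11 growth and metabolism genes were higher and 8 lower in Dex, 5 turnover genes were higher and 5 lower in Veh, and 2 MYC-repressed genes were higher and 1 lower in Veh.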

How the data were processed

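RNA-seq of 12 libraries, 3 per group, was used. Per the labels' protocols, TruSeq mRNA libraries were sequenced paired-end with 75 bases per read. FastQC 0.11.7, featureCounts, Subread, DESeq2 1.22.2 and hg38 are named in the submitters' processing notes, while for aligner, annotation and strand the sources used here give nothing. The deposited values are a normalized signal, made by dividing each gene's reads by the size factor of the library. This was read from the values, since 100% were whole multiples of the library's smallest step within 0.01 reads.

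The Dex files list 26485 names, of which 6578 have no value, and their names are shifted against the values. The vehicle names were therefore given to the Dex values by line order. Log2 values of Dex libraries correlated with the vehicle mean across genes at 0.9816 to 0.9886 by line and −0.0056 to −0.0036 by name.

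Differences were tested with limma 3.58.1 (R 4.3.3, trend, two-sided) on log2(value + 1), with 12 libraries in 1 fit and 5 comparisons. Fold changes of low genes are understated on this scale. edgeR 4.0.16 and DESeq2 1.42.0 on recovered reads, other pseudocounts, filters, library weights, a replicate block and left-out libraries were alternatives. In simulated data for Dex in WT-GR cells, 4% of genes changed 1.2-fold, 66.3% of those changed 1.5-fold and 79.8% of those changed 2-fold were recovered. Each simulation held only 196 to 198 changed genes, no other group difference and 1 spread per gene for all groups. In the data 4455 genes were called, so these shares do not give the recovery there.

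The 10 genes and 9 lists (148 symbols, of which 4 were not found) were chosen with earlier results of these data known. All 10 genes are named; up to 4 called genes per list and comparison are named, those of smallest adjusted p (short lists whole). Lengths came from GENCODE v29, using the principal transcript or, for MYC, MAX, MGA and MLX, the longest coding one. The promoter of MYC is not shown.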

Additional observations from a re-analysis of the deposited data

How the results depend on the processing

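Of 1140 values of single network genes under the alternatives other than the names as deposited, 1056 kept their direction and their side of the threshold, 29 became called and 17 lost their call. The other 38, of MAX, MXD1, MXD4, MXI1, MNT and MGA, turned sign without being called before or after, to values of −0.115 to 0.0937. MYC rose with Dex under each of these, by 0.86 to 0.90 in S134A-GR and 0.74 to 0.87 in WT-GR cells. With library weights, 7 of the 10 genes were called with Dex in WT-GR cells and 1 for the difference of responses. Over all 15957 genes tested the weights gave 7113 and 2854 calls in these comparisons, against 4455 and 66 without them. For S134A-GR over WT-GR in Veh they gave 5856 higher and 5844 lower, against 3804 and 4257. Leaving out 1 library gave 0 to 2 genes for the difference of responses and 2 to 5 for S134A-GR over WT-GR in Dex. Leaving out WT-GR Dex replicates 2 and 3 left a lone library in that group, so its number of calls for the difference is not given. Scaling by library size only gave 6 genes for S134A-GR over WT-GR in Dex and lowered the share of higher calls among all genes called for Dex in WT-GR cells to 32.4%, against 49.7%. The causes were not tested. With the Dex names as deposited, the Dex values stand beside other genes' names on all but 8 lines. MXD1, MXI1, MNT, MLX and MLXIP have no Dex value under those names and were not tested. Of the remaining network genes 0 were called in either genotype comparison, where 4264 genes in all were called in Veh and 3995 in Dex. The differences with Dex then turned to −12.42 for MYC, −5.10 for MAX, −3.26 for MXD4 and −12.33 for MGA in S134A-GR cells. In WT-GR cells they turned to −12.56 for MYC, −5.07 for MAX, −6.38 for MXD3, −3.36 for MXD4 and −12.44 for MGA, and MAX in S134A-GR over WT-GR in Dex turned to −0.0216. Replicate numbers were not used to pair the samples, and the labels do not say whether they do. Same-numbered libraries correlated at −0.0852 to 0.0512 in their deviations from the group means, which with 3 libraries per group cannot exclude pairing. In WT-GR cells replicate 1 had the lowest depth with both Veh and Dex, at 56.4 and 56.9 M reads. A replicate block called 6 genes with Dex in S134A-GR cells, 4 in WT-GR cells, 0 for the difference of responses, and 4 and 3 for the genotypes in Veh and Dex, as without it, and of the MLXIP and MLX target genes KLF10 lost its call with it. The difference of responses has no fit with only 2 groups.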
